A study of Mus musculus with 6 samples.

Results

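The genes analysed were 10 AP-1 subunits and immediate early genes, *Fos*, *Fosb*, *Fosl1*, *Fosl2*, *Jun*, *Junb*, *Jund*, *Egr1*, *Atf3* and *Ier2*, chosen by gene symbol from the 28987 genes of the deposited table for their known response to stress and to tissue digestion. The choice was made with earlier results of these data known, so counts of members beside all tested genes are descriptions only. Each symbol had 1 entry, and all 10 genes had a linear mean of 1 or more across the 6 libraries and were tested, as were 15109 genes in all. Ventricles were digested and their EGFP+ cells sorted 4 weeks after the mice had transverse aortic constriction (TAC), a narrowing of the aorta that loads the left ventricle with pressure. Every mouse carried a MerCreMer cDNA in the periostin (*Postn*) locus and a Cre-dependent eGFP reporter in the Rosa locus, had TAC at 8 to 10 weeks of age, and was given tamoxifen (by the labels, injections of 100 mg/kg and chow at 40 mg/kg; the study's methods give other doses). The 3 control libraries carried no further allele, whereas the 3 Hsp47-deleted libraries came from mice that were also Hsp47flox/flox, so that cells able to switch on the reporter could also lose *Hsp47*. Because MerCreMer is driven by *Postn*, the reporter used for sorting marks cells that had expressed this activation gene, in both groups. No library comes from an unoperated heart, from a mouse without Cre or from undigested tissue. Control replicates 3 and 4 are labelled run1739, while run2675 holds control replicate 2 together with the 3 Hsp47-deleted replicates. The labels do not say whether each library is a separate mouse, so the tests below measure the spread between these libraries, which may be technical.

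AP-1 is a dimeric transcription factor assembled from basic leucine zipper proteins. Fos proteins pair with Jun proteins but not with themselves, Jun proteins can also pair with each other, and the dimers bind the sequence TGACTCA. *Fos*, *Fosb*, *Jun*, *Junb*, *Egr1* and *Ier2* are immediate early genes, which are transcribed within minutes of a growth factor, mechanical or stress signal without new protein synthesis, through MAP kinases, serum response factor and CREB. In fibroblasts AP-1 regulates matrix proteases, cytokines and genes of the wound response, and the same early genes are known to rise while tissue is dissociated by enzymes.

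Promoter sequences are shown for *Fos*, *Fosb*, *Jun* and *Junb*. For each, the RefSeq table (GRCm38.p6) held a window of the 250 bases before its annotated start. Distances below are counted from the end of the window, which is the RefSeq start. In GENCODE M21 *Fos* and *Jun* start at the next base, *Junb* starts further downstream, and *Fosb* starts within its window. The sequences are read 5′ to 3′ on the strand of the gene, with TGACG, the core of a CREB and ATF site, in capitals where it was found on either strand. The *Fos* window is chr12:85473640-85473889 on the plus strand. The other windows lie on the minus strand, at chr7:19310046-19310295 for *Fosb*, chr4:95052223-95052472 for *Jun* and chr8:84978749-84978998 for *Junb*.
Fos: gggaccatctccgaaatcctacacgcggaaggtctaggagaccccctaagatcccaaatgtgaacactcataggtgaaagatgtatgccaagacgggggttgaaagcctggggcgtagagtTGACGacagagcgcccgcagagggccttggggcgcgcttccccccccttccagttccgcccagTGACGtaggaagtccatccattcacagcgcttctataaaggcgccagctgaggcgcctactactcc
Fosb: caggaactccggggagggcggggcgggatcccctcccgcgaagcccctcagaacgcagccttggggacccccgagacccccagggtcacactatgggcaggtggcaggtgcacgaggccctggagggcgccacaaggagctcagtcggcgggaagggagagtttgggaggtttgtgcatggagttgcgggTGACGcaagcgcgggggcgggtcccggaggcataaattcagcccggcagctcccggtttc
Jun: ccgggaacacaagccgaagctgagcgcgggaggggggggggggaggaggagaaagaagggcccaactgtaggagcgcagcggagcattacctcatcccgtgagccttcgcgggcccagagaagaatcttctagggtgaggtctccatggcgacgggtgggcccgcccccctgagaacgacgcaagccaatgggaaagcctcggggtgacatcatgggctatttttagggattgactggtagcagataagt
Junb: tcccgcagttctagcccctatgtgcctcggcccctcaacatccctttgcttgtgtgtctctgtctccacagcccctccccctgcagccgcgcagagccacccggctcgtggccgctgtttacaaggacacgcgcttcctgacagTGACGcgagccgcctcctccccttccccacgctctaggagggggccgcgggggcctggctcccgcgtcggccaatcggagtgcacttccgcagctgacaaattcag
TGACG was found 129 and 66 bases before the start of *Fos*, 60 bases before that of *Fosb* and 106 bases before that of *Junb*, and was not in the *Jun* window. Of the 7 members with a window in the table, 4 held it (the fourth is *Atf3*, on the opposite strand), against 17.8% of all 32851 windows. The AP-1 site TGACTCA, which occurs in 4.46% of all windows, and the full CREB site TGACGTCA, found in 1.55%, were in none of the 7. These are matches of letters only. By GENCODE M21 the window listed for *Jund* lies upstream of the annotated gene, and those for *Fosl2* and *Atf3* lie inside their genes. These windows are not printed but are among the 7, and those of *Fosl2* and *Jund* held no TGACG.

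In outline, 7 of the 10 genes (*Fos*, *Fosb*, *Jun*, *Junb*, *Jund*, *Egr1* and *Ier2*) were low in the run1739 controls and high in the control of run2675, at levels in or near the range of the Hsp47-deleted libraries. *Fosl1* had the opposite pattern among the controls, and *Fosl2* and *Atf3* differed little among them. No member passed the test between the groups. Values are log2(value + 1) as deposited, differences are on that scale, and control replicates are always given in the order 3, 4 (run1739) and 2 (run2675), followed by Hsp47-deleted replicates 1, 2 and 3. The linear unit is not named. kallisto, which the submitters' processing notes list, reports values scaled to transcript length, and levels of different genes are set side by side on that footing only.

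**Figure D1:**
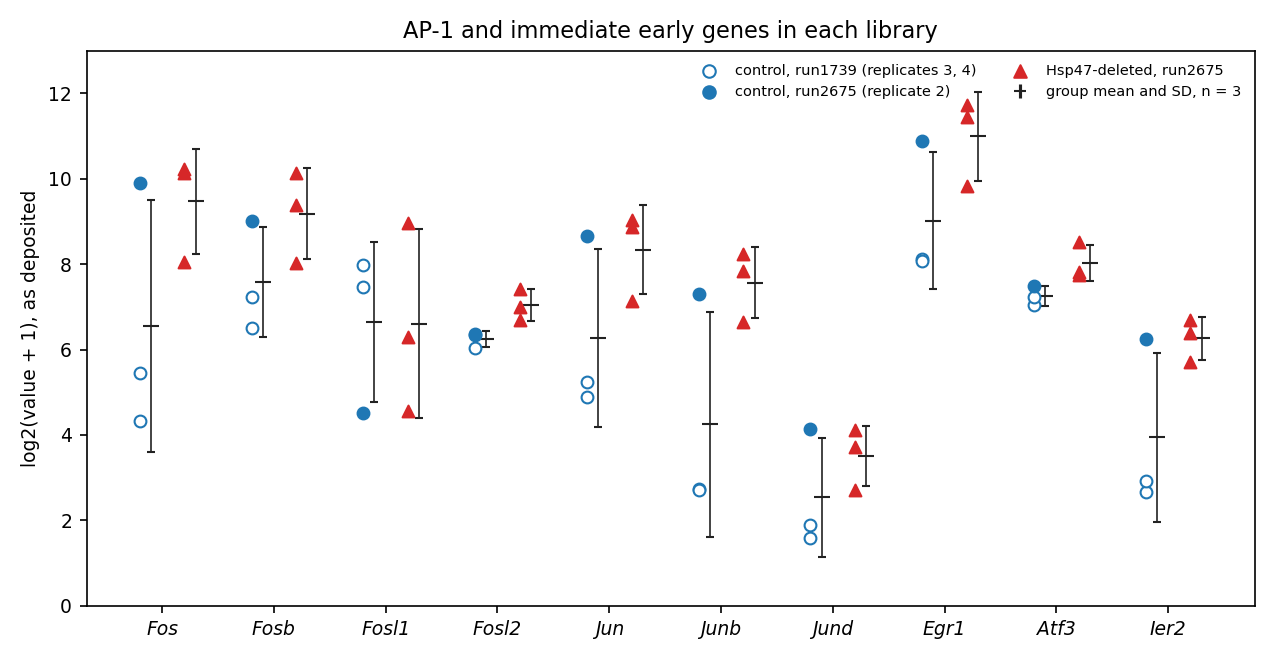
Level of each gene, as log2(value + 1), in each of the 6 libraries. Open circles are controls of run1739, filled circles the control of run2675, triangles Hsp47-deleted libraries, and bars the group mean with its SD (n = 3); for *Fos* the open circles sit at 5.46 and 4.32 and the filled circle at 9.90, beside triangles from 8.04 to 10.23.

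*Fos* (chromosome 12, 85473890 to 85477273 in GRCm38), the founding member of the family, was at 5.46, 4.32 and 9.90 in the controls and at 10.23, 10.13 and 8.04 in the Hsp47-deleted libraries. The lowest Hsp47-deleted library lay below the run2675 control, so the groups overlapped. Controls averaged 6.56 ± 2.95 (SD, n = 3) and Hsp47-deleted libraries 9.47 ± 1.24 (SD, n = 3), which differ by 2.91 (standard error 1.35, limma, BH-adjusted p = 0.345). *Fosb*, whose protein is close to Fos, was at 7.24, 6.50 and 9.01 in the controls and at 9.39, 10.13 and 8.03 in the Hsp47-deleted libraries. Its run2675 control lay between Hsp47-deleted replicates 3 and 1, and the group difference was 1.60 (standard error 0.74, limma, BH-adjusted p = 0.345).

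*Fosl1* encodes Fra-1, which lacks the transactivation domain of Fos and typically accumulates later than Fos after a stimulus. It was at 7.47, 7.99 and 4.51 in the controls and at 4.57, 6.30 and 8.96 in the Hsp47-deleted libraries. The run2675 control was the lowest of the 6 libraries and Hsp47-deleted replicate 3 the highest. Its spread among the Hsp47-deleted libraries, 2.21 (SD, n = 3), was the largest of the 10 members, and the group difference was -0.042 (standard error 1.22, limma, BH-adjusted p = 0.990). *Fosl2*, encoding Fra-2, was at 6.34, 6.04 and 6.36 in the controls and at 6.69, 7.43 and 6.99 in the Hsp47-deleted libraries. All 3 Hsp47-deleted libraries lay above all 3 controls, with means of 7.04 ± 0.37 and 6.25 ± 0.18 (SD, n = 3 each). The difference of 0.79 (standard error 0.31) did not pass after adjustment (limma, BH-adjusted p = 0.307).

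*Jun* (chromosome 4, 95049034 to 95052222) encodes the main activating partner of Fos. It was at 5.25, 4.90 and 8.67 in the controls and at 9.03, 8.86 and 7.13 in the Hsp47-deleted libraries. As for *Fos*, the control of run2675 lay above Hsp47-deleted replicate 3, and the group difference was 2.07 (standard error 1.00, limma, BH-adjusted p = 0.357). *Junb* (chromosome 8, 84974484 to 84978718), whose product often opposes Jun on shared targets, was at 2.74, 2.71 and 7.29 in the controls and at 7.84, 8.23 and 6.64 in the Hsp47-deleted libraries. It had the largest group difference of the 10 members, 3.32 (standard error 1.17, limma, BH-adjusted p = 0.294), with a control SD of 2.63. *Jund*, which is usually expressed without a stimulus, had the lowest level of the members in either group. It was at 1.89, 1.59 and 4.13 in the controls and at 3.71, 4.11 and 2.72 in the Hsp47-deleted libraries, a difference of 0.98 (standard error 0.70, limma, BH-adjusted p = 0.505). The run2675 control gave the highest *Jund* value of the 6 libraries.

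*Egr1*, a zinc finger factor induced through serum response factor, had the highest mean of the 10 members in both groups. It was at 8.11, 8.08 and 10.88 in the controls and at 11.45, 11.74 and 9.82 in the Hsp47-deleted libraries. The groups differed by 1.98 (limma, standard error 0.84, BH-adjusted p = 0.324), and the run2675 control lay within the Hsp47-deleted range. *Ier2*, a short single-exon early gene, was at 2.67, 2.93 and 6.24 in the controls and at 6.69, 6.38 and 5.70 in the Hsp47-deleted libraries, a difference of 2.31 (standard error 0.89, limma, BH-adjusted p = 0.306). *Atf3* encodes a stress-induced ATF protein that dimerises with Jun proteins and often represses. Its level was 7.05, 7.23 and 7.50 in the controls and 7.75, 7.81 and 8.51 in the Hsp47-deleted libraries. The groups did not overlap, and the means differed by 0.76 (limma, standard error 0.33, BH-adjusted p = 0.324).

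Counted over the 10 members, 9 had a positive difference, against 74.5% of all tested genes. At a BH-adjusted limma p under 0.05 none was called, against a background of 0.245% of tested genes (0.232% higher and 0.0132% lower), while 5 were higher at an unadjusted limma p under 0.05 (*Fosl2*, *Junb*, *Egr1*, *Atf3* and *Ier2*), against 14.5% of tested genes. The libraries did not overlap at 2 members, *Fosl2* and *Atf3*, in the higher direction, as at 18.3% of tested genes, and at 0 in the lower direction, as at 1.5%. For a single gene, an exact permutation test of 3 libraries against 3 cannot give a two-sided p under 0.10. The median difference was 1.79 over the members and 0.35 over all tested genes. Centring each library on its median moved the latter to -0.060, and with it the members kept the signs given above, from 0.35 for *Atf3* to 2.91 for *Junb*, with *Fosl1* at -0.46.

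The largest contrasts lay between controls. The control of run2675 exceeded the mean of the run1739 controls by 5.01 for *Fos* (a 32.3-fold ratio of value + 1), 4.56 for *Junb* (23.6-fold), 3.59 for *Jun* (12.1-fold) and 3.44 for *Ier2* (10.9-fold). The same contrast was 2.79 for *Egr1*, 2.39 for *Jund* and 2.14 for *Fosb*. It was 0.36 for *Atf3* and 0.18 for *Fosl2*, and *Fosl1* was 3.22 lower by the same measure (-3.22). The controls of run1739 differed from each other by at most 1.14, the value for *Fos*, and by 0.031 and 0.033 for *Junb* and *Egr1*. Counted together, 7 members were at least 2-fold higher in the run2675 control, against 21.7% of tested genes, and 1 was at least 2-fold lower, against 13.9%. All 7 also exceeded 4-fold, against 5.51% of tested genes. Tested as the run coefficient of the limma fit with run as a covariate, a test added after the contrast had been seen, 4 members were higher in the run2675 control and 0 lower, against 3.18% and 0.768% of tested genes. These were *Junb* (95% interval 3.09 to 6.02, limma, BH-adjusted p = 0.0163), *Ier2* (2.33 to 4.56, limma, BH-adjusted p = 0.0165), *Fos* (2.84 to 7.18, limma, BH-adjusted p = 0.0366) and *Jun* (1.83 to 5.36, limma, BH-adjusted p = 0.0484). *Jund*, *Egr1*, *Fosb* and *Fosl1* did not pass (limma, BH-adjusted p = 0.0716, 0.0762, 0.145 and 0.209). Since 1 arm is a single library, its spread is assumed to be that of the other libraries, and run and mouse cannot be told apart. Over all tested genes their median was 0.11.

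**Figure D2:**
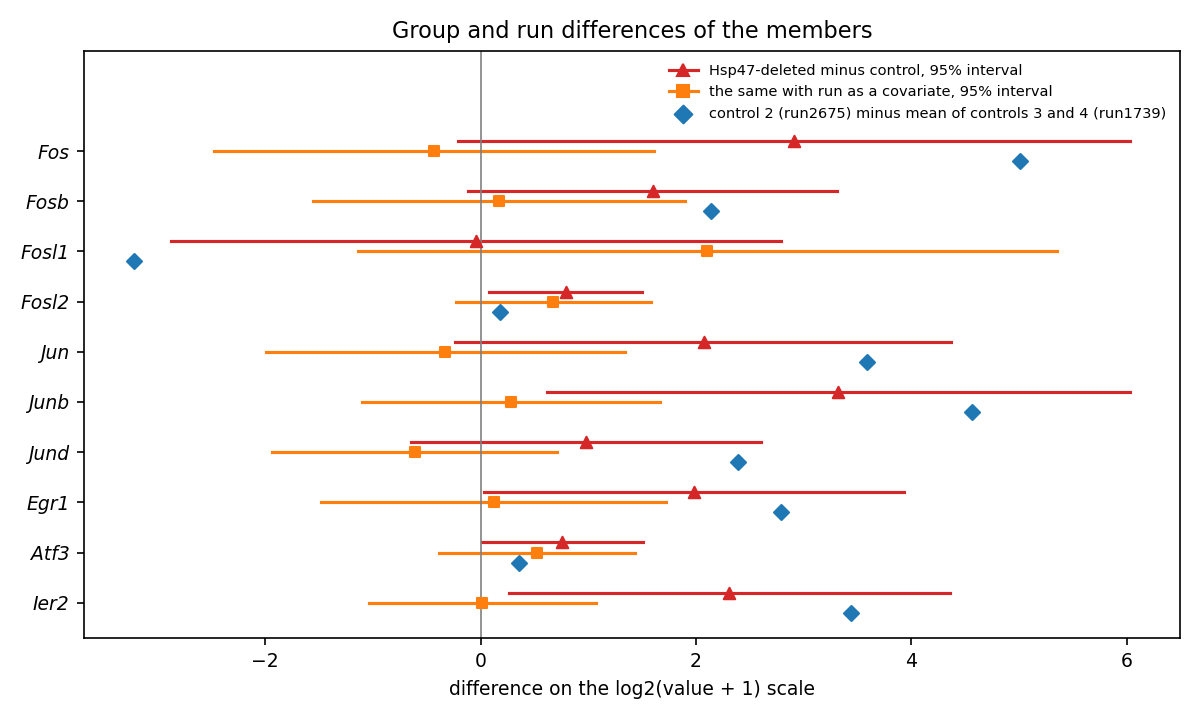
Differences on the log2(value + 1) scale for each gene. Triangles show Hsp47-deleted minus control, squares the same with run as a covariate (bars, 95% intervals from limma), and diamonds the run2675 control minus the mean of the run1739 controls, with no interval; for *Junb* these are 3.32, 0.28 and 4.56.

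Within run2675 the 3 Hsp47-deleted libraries were set against control replicate 2 alone, and the spread behind the intervals comes from the run1739 controls and the Hsp47-deleted libraries. With run as a covariate the difference was -0.43 for *Fos* (95% interval -2.48 to 1.61), -0.33 for *Jun* (-1.99 to 1.34) and -0.61 for *Jund* (-1.94 to 0.71). It was 0.28 for *Junb* (-1.10 to 1.67), 0.17 for *Fosb* (-1.56 to 1.90), 0.12 for *Egr1* (-1.48 to 1.72) and 0.016 for *Ier2* (-1.04 to 1.07). These 7 genes, the ones that stood apart between the control runs, thus had intervals that span 0 and still allow changes of 2-fold or more. The run2675 control enters this difference and the contrast between control runs with opposite signs, so these measures are not independent. *Fosl2* and *Atf3* stayed at 0.67 (-0.23 to 1.58) and 0.52 (-0.39 to 1.43), close to their pooled differences, although centring took the pooled values to 0.38 and 0.35 and quantile normalization to 0.42 and 0.29. *Fosl1* was at 2.10 (-1.14 to 5.35), the only member at least 2-fold higher than the run2675 control, against 9.72% of tested genes. No member passed (BH-adjusted limma p from 0.732 to 0.994), against 0.331% of tested genes called in that fit. The median within run2675 was 0.14 over the members and 0.29 over all tested genes, so the median of the members lay below that of the rest there. The run2675 control lay within the range of the Hsp47-deleted libraries at 6 members, against 41.6% of tested genes.

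Leaving out control replicate 2 changed the calls. The comparison is then of 2 controls of run1739 with 3 Hsp47-deleted libraries of run2675, in which run and genotype cannot be told apart. *Fos* (4.58, limma, BH-adjusted p = 0.00831), *Junb* (4.84, limma, BH-adjusted p = 0.00185), *Ier2* (3.46, limma, BH-adjusted p = 0.00226) and *Jun* (3.26, limma, BH-adjusted p = 0.0122) were then called higher. *Egr1* (2.91), *Fosb* (2.31) and *Jund* (1.77) were also called (limma, BH-adjusted p = 0.0154, 0.0367 and 0.0371). That made 7 members called higher and 0 lower, against 16.4% and 1.87% of tested genes. *Fosl2*, *Atf3* and *Fosl1* were not called in it (limma, BH-adjusted p = 0.0929, 0.0874 and 0.506).

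The makeup of the Fos family in the linear values differed among libraries. *Fosl1* made up 39.2% and 59.3% of the summed *Fos*, *Fosb*, *Fosl1* and *Fosl2* values in the run1739 controls, 1.39% in the run2675 control, and 1.14%, 3.14% and 43.5% in Hsp47-deleted replicates 1, 2 and 3. Hsp47-deleted replicate 3 therefore resembled the run1739 controls in its *Fosl1* share. *Fos* itself made up 9.58% and 4.44% of the sum in the run1739 controls, 60.7% in the run2675 control and 60.2%, 45.0% and 22.9% in the Hsp47-deleted libraries. The sums were 448 and 426 in the run1739 controls, 1573 in the run2675 control and between 1146 and 2482 in the Hsp47-deleted libraries. In the Jun family, *Jun* was the largest part in each of the 6 libraries, from 57.1% to 81.5%, and *Junb* made up 12.5% and 15.2% of the sum in the run1739 controls, 26.8% in the run2675 control and from 29.8% to 40.6% in the Hsp47-deleted libraries. Every Hsp47-deleted library thus had a higher *Junb* share than every control, which was picked out after the values were seen and not tested. Within run2675 the nearest shares were 26.8% and 29.8%. Shares within a family depend on each other, and single genes did not overlap in the higher direction at 18.3% of tested genes. The Jun sums were 45.5 and 36.5 in the run1739 controls against 577 in the run2675 control and from 243 to 779 in the Hsp47-deleted libraries.

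**Figure D3:**
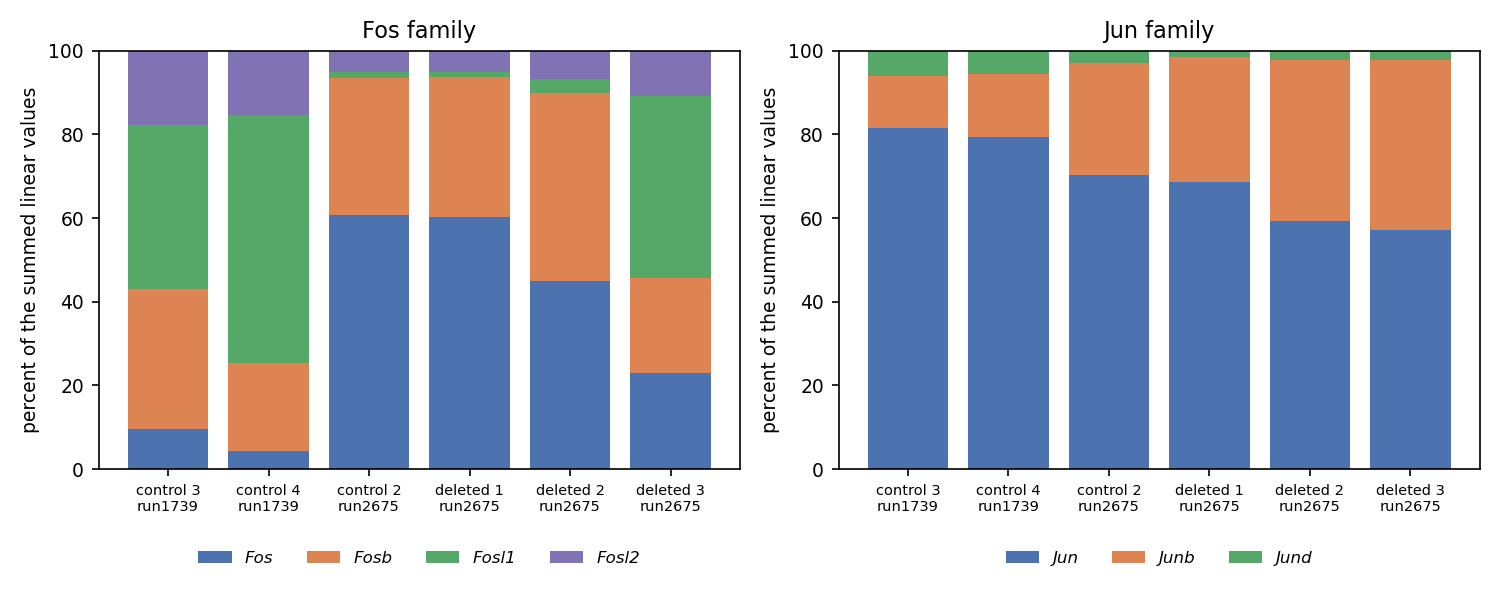
Share of each family member in the summed linear values of its family, in percent, for each library (left, Fos family; right, Jun family). *Fosl1* takes 39.2% and 59.3% of the Fos family in the run1739 controls and 43.5% in Hsp47-deleted replicate 3, and from 1.14% to 3.14% in the other libraries.

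By group mean, the order of levels in controls was *Egr1* (9.02), *Fosb* (7.58), *Atf3* (7.26), *Fosl1* (6.65), *Fos* (6.56), *Jun* (6.27), *Fosl2* (6.25), *Junb* (4.25), *Ier2* (3.94) and *Jund* (2.54). In this order the steps from *Egr1* to *Fosb* and from *Ier2* to *Jund* exceeded the SD of the step over the 3 libraries, and the other neighbours did not differ beyond it. In the Hsp47-deleted libraries the order was *Egr1* (11.0), *Fos* (9.47), *Fosb* (9.18), *Jun* (8.34), *Atf3* (8.02), *Junb* (7.57), *Fosl2* (7.04), *Fosl1* (6.61), *Ier2* (6.26) and *Jund* (3.51). There the steps from *Egr1* to *Fos*, *Fosb* to *Jun* and *Ier2* to *Jund* exceeded their SD.

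The members share sequence features that the choice of genes did not use. The GC content of the longest coding transcript lay above the median of tested genes (49.8%) for all 10 members, from 51.9% for *Fos* to 67.1% for *Jund*. *Junb* (62.6%), *Jund* and *Ier2* (60.9%) were richer in GC than 98.9%, 99.8% and 97.5% of tested genes. *Jun*, *Junb*, *Jund* and *Ier2* consist of a single exon, as do 8.54% of the 14783 tested genes with an annotation. GC content moved with the contrast between control runs over all genes, from a median of -0.26 below 40% GC to 0.69 between 55% and 60% and 0.95 above 60%. The corresponding medians within run2675 were 0.24, 0.27 and 0.28, and those of the pooled difference between groups 0.03, 0.74 and 0.95. With the trends of each library with GC content and transcript length removed (a setting added after the values had been seen), the contrast between control runs was 5.06 for *Fos*, 3.79 for *Junb*, 3.38 for *Jun*, 2.69 for *Ier2*, 2.50 for *Egr1*, 1.93 for *Fosb* and 1.37 for *Jund*. The contrasts of *Fos*, *Junb*, *Jun*, *Ier2* and *Egr1* were above 4-fold with and without this step, and those of *Fosb* and *Jund* only without it. *Fosl1*, at 58.5% GC, lay at -3.75 by the same measure. The pooled difference between groups went from 0.98 to 0.33 for *Jund* with this step and from 3.32 to 2.83 for *Junb*, and was 2.90 for *Fos*.

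**Figure D4:**
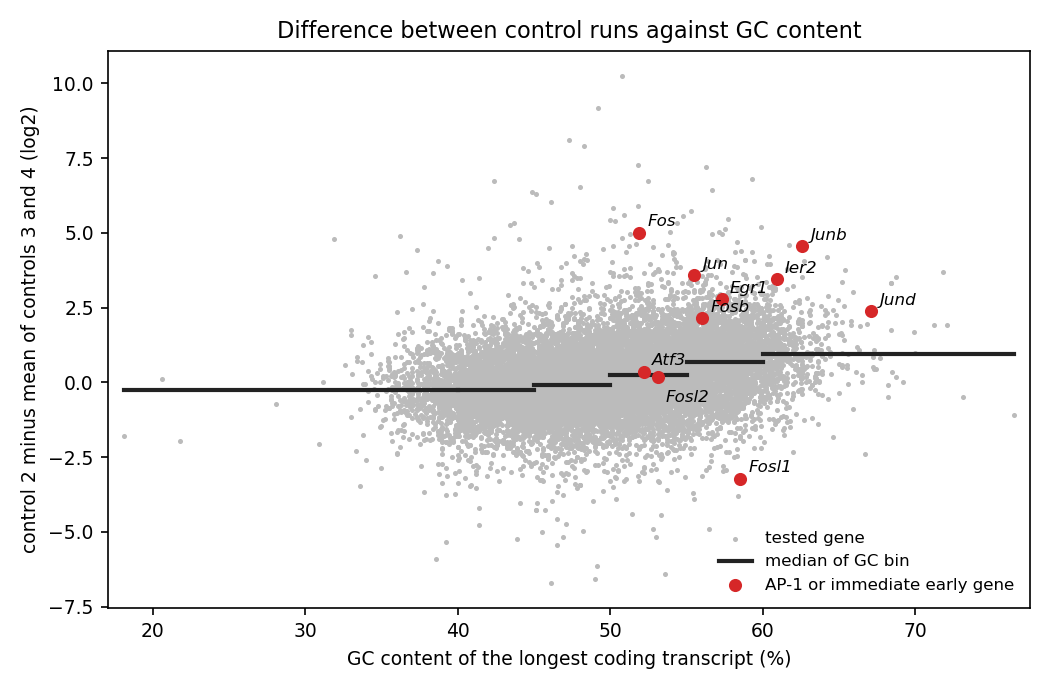
Run2675 control minus the mean of the run1739 controls (log2 scale) against the GC content of the longest coding transcript, for each tested gene with an annotation (grey) and the 10 members (red). Black lines are the medians of GC bins, which go from -0.26 to 0.95; *Fos*, *Jun*, *Junb* and *Ier2* lie far above their bins and *Fosl1* far below.

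Other early response genes were examined through lists written with earlier results of these data known. Of 54 tested genes in a list of other immediate early genes, 50 had a positive group difference (74.5% of all tested genes did), with a median of 1.20 against 0.35. None was called after adjustment (limma), while 26 were higher and 0 lower at an unadjusted limma p under 0.05, against 14.5% and 0.755% of all tested genes. The groups did not overlap in the higher direction at 27 of them, against 18.3%. *Gadd45b*, a stress-induced regulator of growth arrest, was at 4.74, 4.84 and 6.78 in the controls and at 7.94, 8.39 and 7.94 in the Hsp47-deleted libraries (2.64, standard error 0.55, limma, BH-adjusted p = 0.155). Within run2675 its difference was 1.31. *Ctgf*, a matricellular factor induced by TGF-β and YAP, was at 9.20, 9.10 and 9.37 in the controls and at 10.46, 10.76 and 10.64 in the Hsp47-deleted libraries (1.40, standard error 0.29, limma, BH-adjusted p = 0.160). Its controls differed little between runs, and within run2675 the difference was 1.25. *Plk3*, a stress-responsive polo-like kinase, had a difference of 1.64 (limma, BH-adjusted p = 0.162) and 1.22 within run2675.

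Among these 54 genes 24 were at least 2-fold higher in the run2675 control than in the run1739 controls and 8 were at least 2-fold lower, against 21.7% and 13.9% of all tested genes. In the Hsp47-deleted libraries 17 were at least 2-fold higher than in the run2675 control, against 9.72%. Their median within run2675 was 0.65, against 0.29 for all tested genes. The early genes with the largest positive contrast between control runs, picked out after their values were seen, were *Klf2* (3.80), *Socs3* (3.64) and *Btg2* (3.20). Within run2675 they differed by -0.46, 0.25 and -0.15. Picking on a high run2675 control lowers this difference in advance, so the likeness to *Fos* and *Jun* is partly built in. Without control replicate 2, 30 of the 54 were called, against 16.4% of all tested genes higher and 1.87% lower in that fit.

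**Figure D5:**
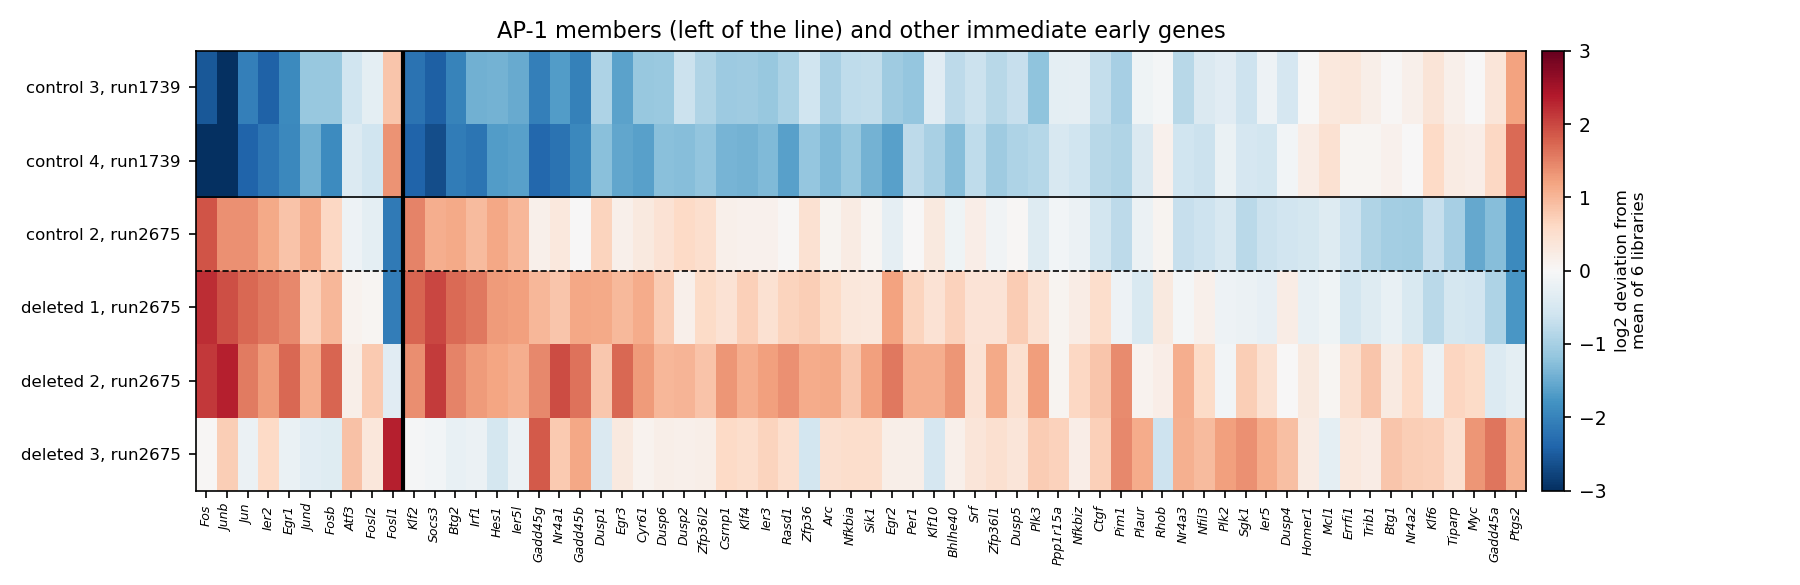
Deviation of each gene from its own mean over the 6 libraries (log2 scale, colours end at 3 in either direction), for the 10 members left of the thick line and 54 other immediate early genes right of it, each ordered by the contrast between control runs. Rows are libraries; *Fos* and *Junb* are dark blue in both run1739 controls and red in the control of run2675, while *Ptgs2* at the right edge has the opposite pattern.

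Of 23 tested genes among other AP-1 and bZIP partners, proteins that dimerise with Fos or Jun or belong to related ATF, Maf and C/EBP families, 19 had a positive difference, against 74.5% of all tested genes, with a median of 0.58 against 0.35. None was called after adjustment, and 8 were higher at an unadjusted limma p under 0.05, against 14.5%. *Jdp2*, a repressive partner of Jun, had a difference of 1.54 (standard error 0.40, limma, BH-adjusted p = 0.252) and *Cebpa* one of 1.31. For both genes the groups did not overlap, and the within-run differences were 0.97 and 1.12. Of 26 tested upstream kinases and serum response factors, 21 were positive with a median of 0.40, or -0.014 after each library was centred. None was called, and 5 were higher at an unadjusted limma p under 0.05, against 74.5% positive and 14.5% higher of all tested genes. *Mkl1*, the actin-regulated coactivator of serum response factor, had a difference of 1.11 and *Map2k2* one of 0.95, within run2675 0.81 and 0.85, and *Mapk7* one of 1.37, within run2675 0.42.

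Of 13 tested heat shock genes that are known to rise on cell dissociation, all were positive, against 74.5% of all tested genes. Their pooled median was 0.73 and their within-run median 0.74, against 0.35 and 0.29 for all tested genes. With each library centred their pooled median was 0.31, against -0.060 for all tested genes. None was called after adjustment, and 5 were higher at an unadjusted limma p under 0.05, against 14.5%. *Hspa1b*, encoding an inducible Hsp70, was at 3.27, 3.22 and 3.84 in the controls and at 4.43, 4.98 and 5.26 in the Hsp47-deleted libraries. Its difference was 1.45 (limma, BH-adjusted p = 0.214) and 1.05 within run2675, while *Hspb1* and *Hspa1a* had differences of 1.39 and 1.22, and 0.54 and 0.56 within run2675. The contrast between control runs had a median of -0.15 over these genes, where it was 2.59 over the AP-1 and immediate early members. The list was split, with contrasts of 0.60 for *Hspa1b*, 1.28 for *Hspb1* and 0.99 for *Hspa1a*, but -1.92 for *Hsph1* and -1.15 for *Hsp90aa1*. By at least 2-fold, 1 of the 13 was higher in the run2675 control and 2 were lower, against 21.7% and 13.9% of tested genes. Of 18 tested AP-1 target genes, 12 were positive with a median of 0.43, 2 were higher at an unadjusted limma p under 0.05 (*Tgfb1*, 1.37, and *Plat*, 0.90) and none was called. Both counts are below the shares of all tested genes (74.5% and 14.5%), and the median became 0.015 with centring and 0.011 with quantile normalization. Within run2675 the AP-1 target median was 0.85, against 0.29 for all tested genes. There 8 targets were at least 2-fold above the run2675 control, against 9.72% of tested genes. The contrast between control runs had a median of -0.87 over the targets. In the run2675 control 8 were at least 2-fold lower and 1 at least 2-fold higher, against 13.9% and 21.7%. *Mmp3*, the protease stromelysin, had the next smallest p, with a difference of 1.23 and 1.83 within run2675.

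Genes with the pattern most like the members were sought over the 6 libraries, by Pearson r with the mean log2 value of the 10 members, which was 5.42 and 5.23 in the run1739 controls, 7.45 in the run2675 control and 7.73, 8.11 and 7.25 in the Hsp47-deleted libraries. The 5 closest were *Ncald* (r = 0.9993), *Tsc22d1* (r = 0.9991), *Bahd1* (r = 0.9985), *AY036118* (r = 0.9983) and *Cyb561d2* (r = 0.9983). The points fall into the run1739 pair and the other 4 libraries, which sets such values, and 7.98% of the other tested genes reached an r of 0.95.

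Several values of the whole series moved with these results. The targeted gene *Hsp47* (*Serpinh1*) was at 6.28, 6.10 and 7.60 in the controls and at 6.87, 6.67 and 6.66 in the Hsp47-deleted libraries, so the libraries labelled Hsp47-deleted were not lower in the pooled comparison (0.072, limma, BH-adjusted p = 0.947) and were 0.87 below the run2675 control (-0.87); directions above follow the labels. The loxP sites mark exon 6 by the genotyping in the study's methods, so a value over the whole gene need not fall and does not check the labels. Linear values summed to 690499 and 759227 in the run1739 controls, 809085 in the run2675 control and from 800714 to 855404 in the Hsp47-deleted libraries. In the same order, genes above 0 numbered 18888 and 19221, 20558, and from 20678 to 21107, so both were lowest in the run1739 controls. Across tested genes r between libraries was 0.933 for the run1739 controls and 0.827 and 0.761 for the run2675 control with each of them. It was from 0.872 to 0.936 for the run2675 control with the Hsp47-deleted libraries. For the Hsp47-deleted libraries with the run1739 controls it was from 0.766 to 0.869. Hsp47-deleted replicate 3 was about as close to control replicate 3 (0.869) as to the run2675 control (0.872). Markers of fibroblasts (8 of 8 in the table) summed to between 7953 and 10924 in the controls and between 12542 and 14297 in the Hsp47-deleted libraries, with none at 0. Those of endothelial cells (8 of 8) summed to 238 and 100 in the run1739 controls, 600 in the run2675 control and from 266 to 568 in the Hsp47-deleted libraries, with none at 0, and those of cardiomyocytes (9 of 9) to 103 and 52.7, 281, and from 175 to 290, with none at 0. Endothelial and cardiomyocyte markers thus followed *Fos* and *Jun* across the controls, at sums far below the fibroblast markers. Leukocyte markers (8 of 9 in the table) summed to between 37.8 and 91.3 in the controls and between 98.4 and 125 in the Hsp47-deleted libraries, with *Ptprc* listed at 0 in every library and *Cd3e* in at least 1, and mural markers (6 of 6) to between 163 and 288 and between 111 and 169. The part of these cells, of GC content and of run in the results was not tested, and in sorted pools fewer cells of a type and less RNA per cell cannot be told apart.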

How the data were processed

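The values are log2(value + 1) per gene and library, as deposited by the authors in 1 table of 28987 genes that does not name the linear unit. RNA was amplified (Ovation RNA-Seq System v2), made into Nextera XT libraries and sequenced on a HiSeq2500. The submitters' processing notes name kallisto and mm10, and the paper AltAnalyze. Versions, annotation and filters are not given in the sources used here. The table holds no counts, so the depth is unknown and no interval that needs it is given. The authors' group means, fold changes and p-values were not used.

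The log2 values were used as deposited. Genes with a linear mean of at least 1 (15109) entered limma 3.58.1 (R 4.3.3) (mean-variance trend, no covariate), with Benjamini-Hochberg (BH) adjustment over all tested genes and a threshold of 0.05. The fit was tested on simulated data. A symbol with more than 1 row (*Mafg*, *Atf7*) was represented by the row with the higher mean. The alternatives took run as a covariate, blocked on replicate number, dropped the filter or raised it to 5, used pseudocounts of 0.1 or 5, centred libraries on their medians, applied quantile normalization, or ran limma robustly or without its trend. Further ones were each library left out, run2675 alone, and, chosen after the data were seen, removal of GC and length trends (lowess, span 0.3). Gene lengths, GC content and positions came from GENCODE M21 (GRCm38; 27458 genes matched) and promoters from RefSeq. All members, *Serpinh1*, the 3 genes with the smallest p of each list and the 5 genes most like the members were named, except 1 gene that is not reported here. Members and lists were chosen with earlier results of these data known.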

Additional observations from a re-analysis of the deposited data

How the results depend on the processing

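No member was called in 16 of 17 alternative fits, and the exception was the fit without control replicate 2. With run as a covariate, and equally in run2675 alone, the signs of *Fos* (-0.43), *Jun* (-0.33), *Jund* (-0.61) and *Fosl1* (2.10) reversed. In both settings *Fosb* (0.17), *Junb* (0.28), *Egr1* (0.12) and *Ier2* (0.016) had the same values, which moved by more than the replicate spread. The cause was not tested. Leaving out each library in turn gave from 1.79 to 4.58 for *Fos*, 1.06 to 2.31 for *Fosb*, -1.22 to 0.98 for *Fosl1*, 1.38 to 3.26 for *Jun*, 2.56 to 4.84 for *Junb*, 0.50 to 1.77 for *Jund*, 1.51 to 2.91 for *Egr1* and 1.67 to 3.46 for *Ier2*, from 0 to 7 members called higher, and from -0.21 to 0.54 for *Serpinh1*. *Serpinh1* also reversed with run as a covariate (-0.87), the replicate block (-0.28), quantile normalization (-0.27), centring (-0.34) and removal of GC and length trends (-0.18).

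Over all genes, 37 were called, against 50 with run as a covariate, 16 with a pseudocount of 0.1, 17 with quantile normalization, 18 with centring and from 8 to 2768 on leaving out a library, the last without control replicate 2. Replicate numbers 2 and 3 occur in both groups, and number 3 spans both runs. The deviations of same-numbered libraries had r = 0.156 and 0.228, which with so few numbers does not show pairing. With the replicate number as a block 0 genes were called (1457 were higher and 88 lower at an unadjusted limma p under 0.05) and *Fosl1* was at 1.64. Under the block the other members kept their sign, with *Fos* at 1.40, *Jun* at 1.03, *Fosb* at 0.95, *Egr1* at 1.28 and *Jund* at 0.41, each over 1.5 times smaller. No member was called under it. *Jund* was at 0.55 with quantile normalization, 0.56 with centring and 0.58 with a pseudocount of 5. The list medians moved as follows. Quantile normalization gave 0.20 for AP-1 and bZIP partners, 0.77 for other immediate early genes, 0.010 for upstream factors and 0.34 for heat shock genes, and centring gave 0.16 for bZIP partners, -0.014 for upstream factors and 0.31 for heat shock genes. Run as a covariate, and run2675 alone, gave 0.65 for other immediate early genes.
On leaving out a library the calls per list ranged from 0 to 30 for other immediate early genes, 0 to 6 for bZIP partners, 0 to 5 for upstream factors, 0 to 3 for heat shock genes and 0 to 2 for AP-1 targets, whose median went from -0.054 to 0.76.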

Other observations

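Among AP-1 target and early response genes, some shared the pattern of *Fosl1* rather than that of *Fos*. They were picked out after their values were seen and have no test. *Hmox1*, encoding heme oxygenase, was at 10.99 and 11.69 in the run1739 controls, 6.91 in the run2675 control, and at 6.88, 8.09 and 12.39 in the Hsp47-deleted libraries. The interleukin gene *Il6* was at 10.57, 10.88 and 7.60 in the controls and at 8.19, 9.62 and 10.95 in the Hsp47-deleted libraries. *Ptgs2*, encoding cyclooxygenase 2, was at 10.22, 10.71 and 7.10 in the controls and at 7.27, 8.72 and 10.09 in the Hsp47-deleted libraries. For *Fosl1* as for these genes, the run1739 controls and Hsp47-deleted replicate 3 were high, and the run2675 control and Hsp47-deleted replicate 1 were low.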
